A study of Mus musculus with 27 samples.

Results

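DNA methylation was compared between B cells that received SHMT2 and B cells that received an empty vector, in the 6 enhanced reduced representation bisulfite sequencing (ERRBS) libraries among the 27 samples of the series. The 6 libraries, 3 vector and 3 SHMT2, were chosen by assay, and the analysis covered the 1211987 autosomal cytosines with at least 10 calls in every one of them. All cells were B220+ cells, B220 being a surface form of CD45 carried by B cells, and both groups carried VavPBcl2, a transgene by which blood cells express Bcl2, an inhibitor of apoptosis. The controls received the empty retroviral vector and the others MSCV-SHMT2. The labels of the matching RNA-seq and ChIP-seq samples say that stem cells from E13.5 fetal liver were infected and transplanted into irradiated wild type mice, and that B cells came from the spleen of the resulting tumors. The ERRBS labels state only the cells, the model and the transfection, which for SHMT2 replicates 2 and 3 reads SHMT3 and SHMT4. The titles, which read SHMT2 for all 3, were followed. The labels do not say which mice the libraries of a group came from, so p-values cover only how these samples vary, part of which may be technical.

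SHMT2 is the mitochondrial serine hydroxymethyltransferase, which moves a carbon unit from serine to folate. The folate cycle feeds the methionine cycle, whose product S-adenosylmethionine is the methyl donor of DNA methyltransferases. In mammalian cells methylation sits mostly on CpG dinucleotides. Sparse CpGs are usually methylated, CpG islands at gene starts are usually not, and tumour cells can carry methylated islands. ERRBS reads bisulfite-treated restriction fragments, which favours CpG-rich DNA, and the level of a cytosine is the percent of its calls that stayed C. In bulk DNA a middling level cannot be told apart from a mixture of methylated and unmethylated cells.

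Each library listed 1330340 to 1424115 cytosines at a mean of 63.0 to 71.6 calls. One library, SHMT2 replicate 2, differed widely from the rest, so the group differences by stratum and by gene list are given with and without it. Across 64426 autosomal 1 kb tiles its Pearson correlation with the other libraries was 0.882 to 0.915, against 0.953 to 0.979 among the others. These correlations describe libraries that share the same CpG composition. Few chromosome Y cytosines were listed in vector replicate 1 (185) and SHMT2 replicate 2 (186), against 1095 to 1158 in the other 4, and their mean level on chromosome X was 53.9% and 52.9%, against 37.5% to 38.1%. The labels do not give the sex of the mice. As alternatives, the comparison was also run within the 4 libraries with many Y cytosines and with this Y class as a block. What this X and Y difference contributes to the autosomal results cannot be told apart from other differences between these libraries. Of the autosomal correlations with SHMT2 replicate 2, those of SHMT2 replicate 1 (0.915) and vector replicate 1 (0.911) were the highest. Over the B cell marker gene Pax5, the mean level of 351 cytosines was 34.7% to 42.6% in the 6 libraries. Around the myeloid markers Csf1r, Itgam and Mpo it was 82.1% to 88.7%, with SHMT2 replicate 2 lowest, and at the endothelial markers Pecam1 and Cdh5 it was 80.9% to 84.2%. The part of other cell types in the results was not tested.

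The following gene starts show the patterns that the results turn on, and their start regions are printed 5′ to 3′ on the strand of the gene, from RefSeq with build GRCm38.p6. Capitals mark the CpGs read in all 6 libraries. Sash1, which encodes a signalling adaptor, and Ptprm, which encodes a receptor tyrosine phosphatase, are genes that the study singled out as silenced tumour suppressors, so they are not independent evidence. Tead2, a DNA-binding partner of the Hippo pathway effector Yap, and LOC115486434, a predicted gene that overlaps Kcns1, stand for the starts at which all 3 SHMT2 libraries lay on 1 side of all 3 vector libraries.
Sash1: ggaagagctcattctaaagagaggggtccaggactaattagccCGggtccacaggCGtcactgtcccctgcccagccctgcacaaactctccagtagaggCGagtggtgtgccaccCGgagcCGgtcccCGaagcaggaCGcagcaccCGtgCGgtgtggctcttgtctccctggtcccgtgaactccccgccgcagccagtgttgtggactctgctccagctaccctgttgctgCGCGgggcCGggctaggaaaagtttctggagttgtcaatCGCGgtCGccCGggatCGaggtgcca
Ptprm: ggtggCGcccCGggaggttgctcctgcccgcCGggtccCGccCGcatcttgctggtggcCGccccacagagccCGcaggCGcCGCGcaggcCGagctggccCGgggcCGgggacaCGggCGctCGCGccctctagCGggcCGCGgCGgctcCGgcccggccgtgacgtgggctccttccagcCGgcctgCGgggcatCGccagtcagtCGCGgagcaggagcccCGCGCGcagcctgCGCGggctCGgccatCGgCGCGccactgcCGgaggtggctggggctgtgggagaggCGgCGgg
Tead2: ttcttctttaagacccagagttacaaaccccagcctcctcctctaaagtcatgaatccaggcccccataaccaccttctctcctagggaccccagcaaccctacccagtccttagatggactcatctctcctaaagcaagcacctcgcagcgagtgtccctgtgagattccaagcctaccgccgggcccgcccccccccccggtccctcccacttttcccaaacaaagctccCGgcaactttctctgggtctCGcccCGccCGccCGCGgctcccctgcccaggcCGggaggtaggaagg
LOC115486434: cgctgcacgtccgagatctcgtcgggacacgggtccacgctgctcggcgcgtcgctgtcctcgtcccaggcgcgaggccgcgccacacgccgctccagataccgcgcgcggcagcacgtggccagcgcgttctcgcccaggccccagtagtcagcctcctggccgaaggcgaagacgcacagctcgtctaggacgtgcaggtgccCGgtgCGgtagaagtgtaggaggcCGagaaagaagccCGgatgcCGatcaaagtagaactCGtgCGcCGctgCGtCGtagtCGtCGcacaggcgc
In the Sash1 region (chr10:8886021-8886320, minus strand) 17 of 20 CpGs were read. Their mean level came to 8.35%, 8.41% and 7.26% in vector replicates 1 to 3 and 19.15%, 50.8% and 10.6% in SHMT2 replicates 1 to 3. The Ptprm region (chr17:67354410-67354709, minus strand) held 43 CpGs, of which 39 were read, at 24.3%, 18.9% and 20.3% in vector and 33.4%, 65.7% and 17.9% in SHMT2. In both regions SHMT2 replicate 2 was highest and replicate 1 lay above every vector library. SHMT2 replicate 3 lay above every vector library in the Sash1 region and below every one in the Ptprm region. The Tead2 region (chr7:45215542-45215841, plus strand) held 13 CpGs, 7 of them read, at 34.0%, 37.6% and 27.4% in vector and 60.5%, 54.2% and 48.1% in SHMT2. The LOC115486434 region (chr2:164168365-164168664, plus strand) held 44 CpGs, 12 of them read, at 18.3%, 18.4% and 29.0% in vector and 9.48%, 11.6% and 12.6% in SHMT2. The groups did not overlap in the Sash1, Tead2 and LOC115486434 regions, and they overlapped in the Ptprm region. A median autosomal start region of the same length holds 7 CpGs.

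The first comparison asked whether SHMT2 cells had another overall level of methylation. The mean over all shared cytosines was 31.9%, 31.5% and 31.0% in vector replicates 1 to 3 and 31.9%, 32.0% and 31.8% in SHMT2 replicates 1 to 3. The group means were 31.5% ± 0.43 and 31.9% ± 0.14 (SD, n = 3), and the groups overlapped through vector replicate 1. The difference of 0.42 points did not pass a two-sided exact permutation test (p = 0.3), whose smallest possible p with 3 against 3 is 0.1. Without SHMT2 replicate 2 it was 0.35 points. Within that mean the libraries differed in spread: in SHMT2 replicate 2, 19.7% of cytosines lay at 20 to 80% methylated, against 11.5% to 14.3% in the other 5 libraries.

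By starting level, taken as the mean of the 6 libraries, the SHMT2 group was higher at cytosines under 40% and lower at 60 to 95%, and in both ranges SHMT2 replicate 2 lay furthest from the other libraries. Among the 60089 cytosines at 20 to 40% the vector libraries lay at 27.4%, 23.6% and 25.1% and the SHMT2 libraries at 29.7%, 43.1% and 24.8%. SHMT2 replicate 1 lay above every vector library here, and replicate 3 lay inside the vector range. The group difference was 7.17 points, and 1.89 points without replicate 2. Among the 112199 cytosines at 5 to 20% the libraries lay at 10.2%, 8.002% and 8.99% in vector and 10.8%, 19.5% and 8.37% in SHMT2, a difference of 3.81 points, or 0.51 without replicate 2. The direction turned at 60 to 80%, where the vector libraries lay at 73.7%, 74.6% and 71.5% and the SHMT2 libraries at 72.02%, 61.8% and 75.2%. That difference of -3.60 points became 0.33 without replicate 2. At 80 to 95% the difference was -0.90, and 0.68 without replicate 2. The 103370 cytosines at 95 to 100% lay at 97.03%, 96.997% and 95.95% in vector and 97.1%, 96.7% and 97.3% in SHMT2. There the SHMT2 group was higher by 0.37 points (0.54 without replicate 2), and vector replicate 3 was the lowest library. Cytosines under 5%, which made up 51.4% of those compared, lay under 0.9% on average in every library. None of the 7 levels passed the exact permutation test (p = 0.3 to 0.8, each 0.8 after Benjamini-Hochberg adjustment over the 7), and neither did the difference of any level from the rest of the cytosines (adjusted exact permutation p of 0.875 or more).

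**Figure D1:**
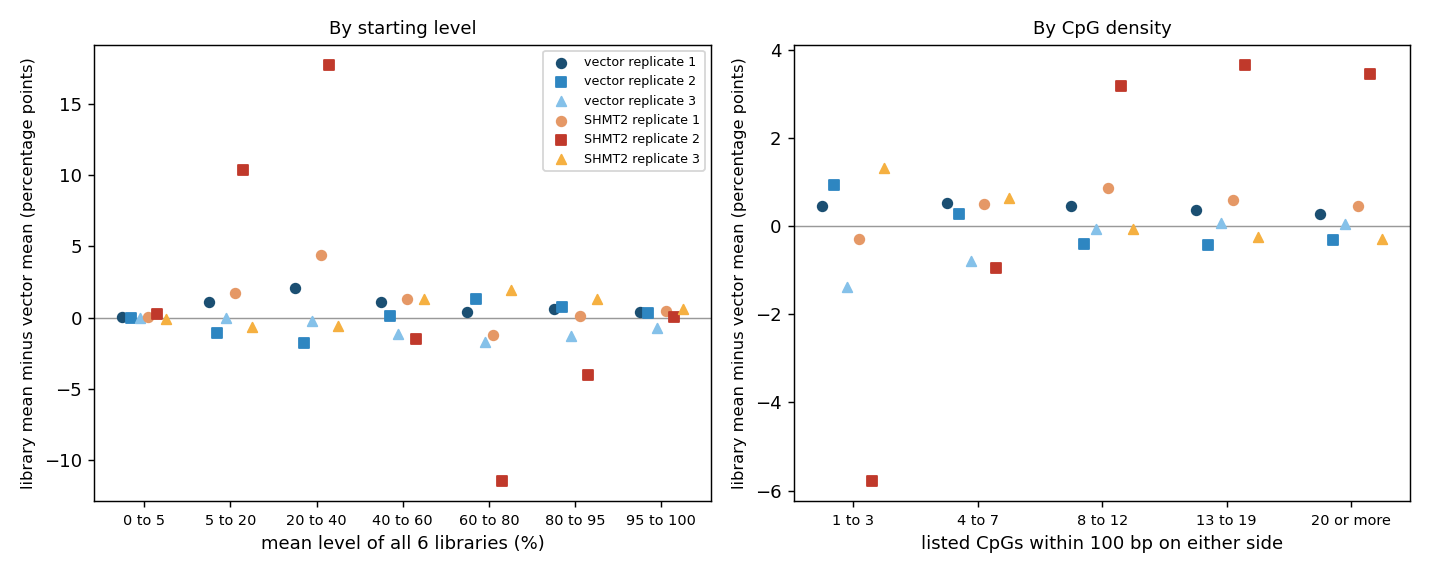
Mean methylation of each library minus the mean of the 3 vector libraries, in percentage points, by starting level (left, mean of the 6 libraries in percent) and by the number of listed CpGs within 100 bp (right). Each point is 1 library, vector in blue and SHMT2 in orange to red, and the line marks the vector mean. SHMT2 replicate 2 (red squares) lies above the others at 5 to 40% and at 8 or more CpGs, and below them at 60 to 95% and at 1 to 3 CpGs.

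CpG density gave the same split. With 20 or more listed CpGs within 100 bp on either side, the 241744 cytosines averaged 3.07%, 2.49% and 2.85% in vector and 3.25%, 6.26% and 2.51% in SHMT2. SHMT2 replicate 2 was the only library outside 2.49% to 3.25%. The difference was 1.21 points, and 0.08 without it. At 13 to 19 CpGs the values were 5.35%, 4.55% and 5.06% in vector and 5.59%, 8.64% and 4.73% in SHMT2 (difference 1.33, or 0.17 without replicate 2). At the 254283 sparse cytosines with 1 to 3 CpGs they were 72.6%, 73.0% and 70.7% in vector and 71.8%, 66.3% and 73.4% in SHMT2, a difference of -1.58 points, or 0.52 without replicate 2. Vector replicate 3 was the next lowest there. None of the 5 densities passed the exact permutation test (p = 0.2 to 0.9, adjusted 0.667 or more). Density is counted from the listed CpGs, so CpGs outside the ERRBS fragments are missing from it.

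The split in SHMT2 replicate 2 was found across the autosomes. In 1 Mb blocks with at least 20 sparse cytosines, it was the lowest of the 6 libraries in 95.9% of 2308 blocks, at a median of 6.50 points below the mean of the others (a difference of -6.50). In blocks with at least 20 cytosines at 20 or more CpGs, it was the highest in 60.2% of 1531 blocks, at a median difference of 0.44 points. SHMT2 replicate 3 was the highest library in 49.7% of the sparse blocks.

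Gene position was read from RefSeq gene starts on 18 autosomes, chromosome 18 starts being not used here. Within 1 kb of a start the 540251 cytosines averaged 5.72%, 5.11% and 5.36% in vector and 5.93%, 8.08% and 5.22% in SHMT2. The difference was 1.01 points, and 0.18 without replicate 2. In the rest of the gene bodies the libraries lay at 51.2%, 50.9% and 50.02% in vector and 51.2%, 50.5% and 51.3% in SHMT2 (difference 0.30, or 0.55 without replicate 2). More than 10 kb from any gene they lay at 75.3%, 75.6% and 73.3% in vector and 73.9%, 68.7% and 75.9% in SHMT2 (difference -1.86, or 0.18). SHMT2 replicate 2 was the highest library near starts and the lowest far from genes. None of the 4 positions passed the exact permutation test (p = 0.3 to 0.8, each 0.8 adjusted). Around the start itself, SHMT2 replicate 2 was 2.30 points above the mean of the others in the 200 bp upstream and 3.87 points above it about 1 kb downstream, and 1.63 points below it at 7.5 to 10 kb upstream (a difference of -1.63).

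**Figure D2:**
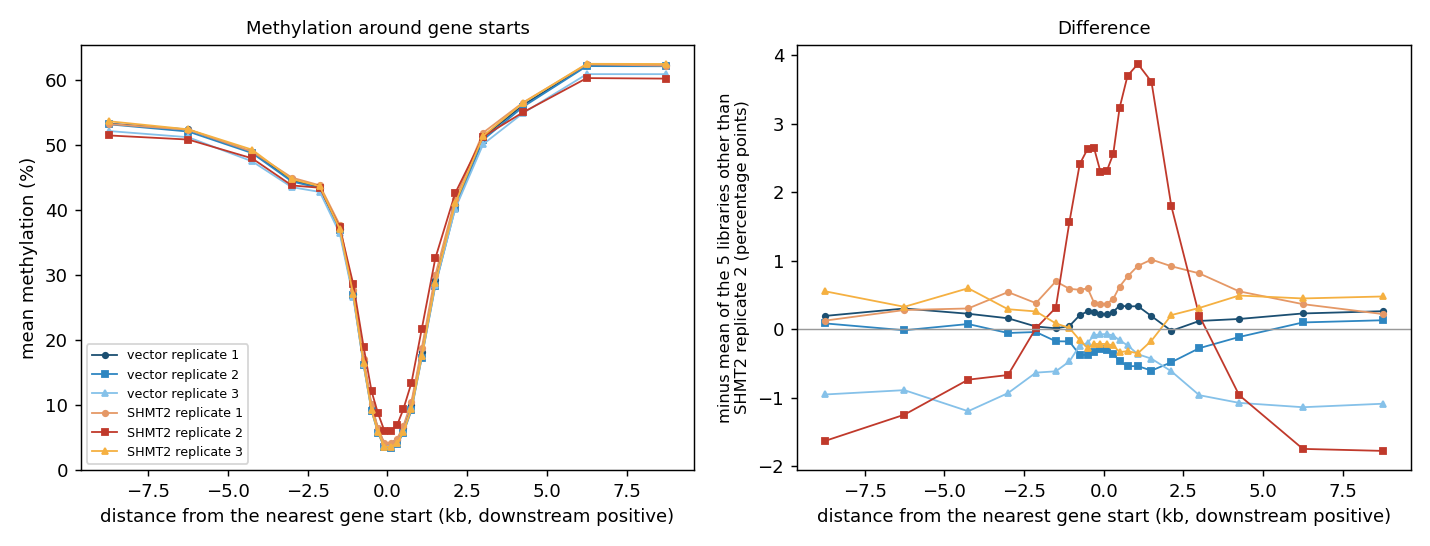
Mean methylation in percent (left) and its difference in percentage points from the mean of the 5 libraries other than SHMT2 replicate 2 (right), by distance from the nearest gene start in kb. Each line is 1 library, vector in blue and SHMT2 in orange to red. SHMT2 replicate 2 peaks at 3.87 points above the others just downstream of the start and crosses below them 2 to 4 kb away.

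Histone marks were read from peaks of the ChIP-seq samples of the series. H3K4me3 marks active or poised gene starts and H3K4me1 marks enhancers and the flanks of starts. In H3K4me3 peaks the 454180 cytosines averaged 2.68%, 2.48% and 2.53% in vector and 2.83%, 3.17% and 2.52% in SHMT2 (difference 0.28, or 0.11 without replicate 2). In H3K4me1 peaks alone the 124749 cytosines averaged 18.6%, 18.2% and 18.2% in vector and 19.6%, 20.4% and 18.5% in SHMT2 (difference 1.14, or 0.68). In neither mark the difference was 0.39 points, or 0.45 without replicate 2. Over a whole class, SHMT2 replicate 2 lay above the mean of the others by 0.56 points in H3K4me3, 1.77 in H3K4me1 alone and 0.081 in neither mark. Within each of the 5 CpG densities, its distance from the mean of the others, up or down, was widest in neither mark. At 13 to 19 CpGs and in neither mark, SHMT2 replicate 2 lay at 25.1%, against 13.4% to 16.3% in the other 5 libraries. At 20 or more CpGs in neither mark it lay at 11.3%, against 4.33% to 5.77%. At the same density inside H3K4me3 peaks it lay at 0.78%, against 0.44% to 0.52%. At 1 to 3 CpGs in neither mark it lay at 72.5%, against 77.5% to 80.5%. None of the 3 mark classes passed the exact permutation test (p = 0.2 to 0.5, adjusted 0.45 or more).

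By chromosome the SHMT2 mean was higher on 19 of 19 autosomes, by 0.19 points on chromosome 16 to 0.79 points on chromosome 12. Chromosomes of 1 library are not replicates, and the overall difference of 0.42 points is what they share. Without SHMT2 replicate 2 it was again higher on 19 of 19, by 0.20 to 0.51 points. The groups overlapped on every chromosome. Without replicate 2 they did not overlap on 2 chromosomes, 11 and 19. On chromosome 12 the vector libraries lay at 33.3%, 32.8% and 32.7% and the SHMT2 libraries at 33.6%, 34.4% and 33.1%. On chromosome 11 they lay at 28.6%, 28.4% and 28.1% in vector and 28.9%, 28.2% and 28.6% in SHMT2, with replicate 2 the lowest SHMT2 library. SHMT2 replicate 2 was the highest library on 11 of the 19. No chromosome passed the exact permutation test (p = 0.2 to 0.8, adjusted 0.447 or more). The median coverage of a chromosome relative to its library was 0.948 to 1.04.

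**Figure D3:**
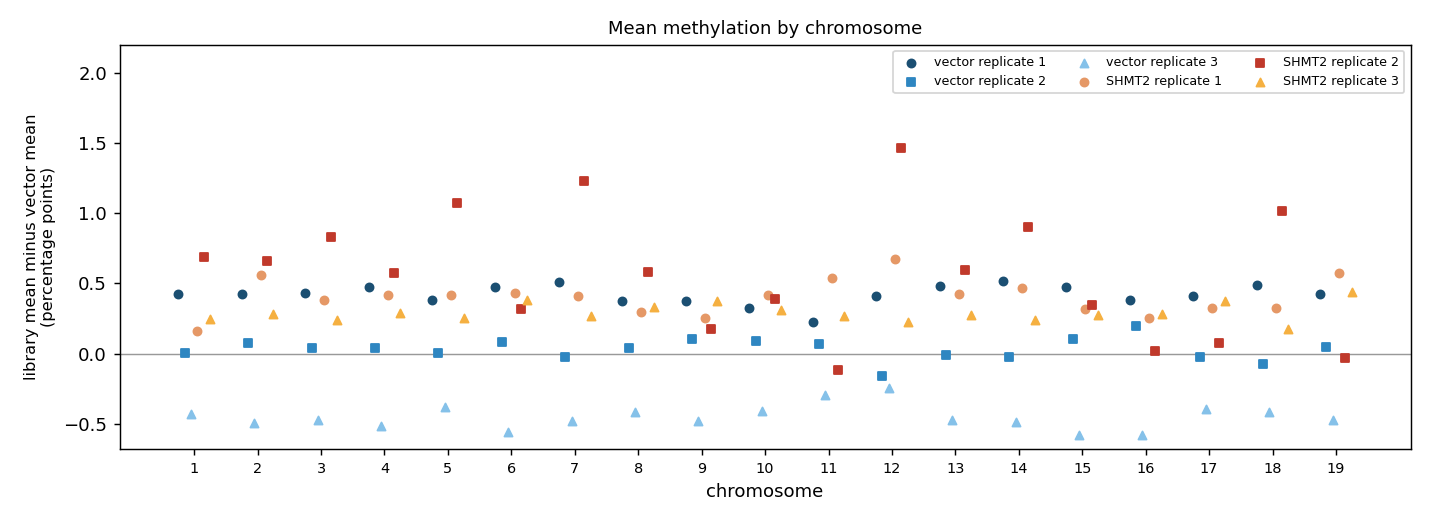
Mean methylation of each library minus the mean of the 3 vector libraries, in percentage points, for the 19 autosomes. Each point is 1 library, vector in blue and SHMT2 in orange to red. SHMT2 replicates 1 and 3 lie above the vector mean on every chromosome and vector replicate 3 below it, while SHMT2 replicate 2 lies below the vector mean on chromosomes 11 and 19 and furthest above it, at 34.4%, on chromosome 12.

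Single cytosines showed how far SHMT2 replicate 2 departed. It lay at least 25 points above all of the other 5 libraries at 28253 cytosines (2.33% of those compared) and at least 25 points below all of them at 13421 (1.11%). The same counts were at most 1541 above, in SHMT2 replicate 1, and at most 2681 below, in vector replicate 3. Of the 28253 high cytosines, 15690 had a starting level, replicate 2 included, of 20 to 40%, which was 26.1% of all cytosines at that level. None of the 13421 low cytosines had 20 or more CpGs around it, and 9452 of them had 1 to 3. By chromosome the high share ran from 0.70% on chromosome 19 to 3.06% on chromosome 7, and the low share from 0.86% to 1.32%. The 2 strands of a CpG give a check inside a library. Where the forward cytosine was high and its partner was listed (5716 CpGs), the partner was at least 10 points above the mean of the others in 95.7%, against 51.4% to 87.3% in the other libraries. Where the forward cytosine was low (1164 CpGs), the partner was at least 10 points below in 83.1%, inside the 56.8% to 86.0% of the other libraries.

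**Figure D4:**
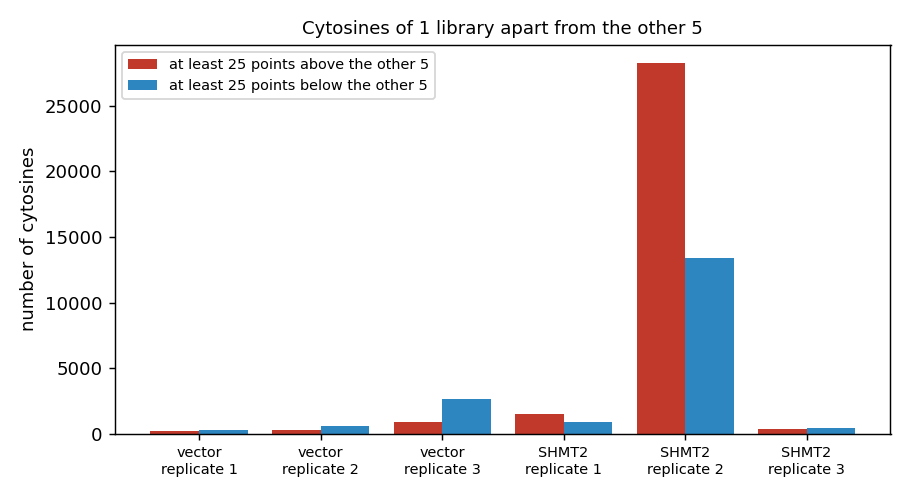
Number of cytosines at which 1 library lay at least 25 percentage points above (red) or below (blue) all of the other 5. Bars start at 0 and each pair is 1 library. SHMT2 replicate 2 has 28253 and 13421, and no other library exceeds 1541 above or 2681 below.

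Cytosines, 1 kb tiles and gene starts were then tested one by one, with a moderated quasi-binomial model of methylated and total calls. No feature passed an adjusted p of 0.05 together with 25 points for a cytosine or 10 points for a tile or start. This held for 485319 cytosines with a mean level of 5 to 95% (0% called), 89375 tiles (0%) and 13467 gene starts (0%). The smallest adjusted p of the quasi-binomial model with Benjamini-Hochberg adjustment was 0.860, 0.888 and 0.866. At an unadjusted p under 0.05 there were 24139 cytosines, 3290 tiles and 463 starts, or 4.97%, 3.68% and 3.44% of those tested. limma on logit values also called 0 of each, with 21269, 3544 and 537 at an unadjusted p under 0.05. Without SHMT2 replicate 2 the model again called 0 of each, and the unadjusted counts were 25023, 3381 and 496. In simulated data with a small spread between libraries the model recovered 92.0% of gene starts changed by 25 points, and with a large spread 0%. For tiles at 25 points the shares were 72% and 0%, and for cytosines at 35 points 86% and 16%. Both spreads were set rather than fitted to these libraries, and no simulated library stood apart, so recovery in these data is not known. Fisher's exact test on calls pooled within groups ignores the spread between libraries. It called 6333 of the 485319 cytosines, 5552 of the 89375 tiles and 595 of the 13467 starts, of which 531 starts were higher in SHMT2. The pooled calls include SHMT2 replicate 2, which alone lay at least 10 points above all other libraries at 915 starts and below at 203. Its part in these calls was not tested. With no limit on the mean level 6 cytosines passed, 3 higher and 3 lower in SHMT2. All 6 had a mean level inside 5 to 95%, so they were also among the 485319 tested and did not pass there. The moderated spread and the adjustment depend on the set tested. Among the 6 was 1 at position 127191494 of chromosome 4, at 52.1% to 56.9% in vector and 84.2% to 88.1% in SHMT2 (adjusted p = 0.0456, quasi-binomial model without the level limit).

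Named gene starts follow, each as the mean over the cytosines within 1 kb of the start. None passed the test (adjusted p of 0.866 or more, quasi-binomial model with Benjamini-Hochberg adjustment), so the values are descriptions. Each rested on at least 102 calls in every library. At Sash1 (chromosome 10, start 8886070, 87 cytosines) the 3 vector libraries lay at 11.5%, 11.2% and 9.98% and the SHMT2 libraries at 23.1%, 54.0% and 9.34%. At Ptprm (chromosome 17, start 67354459, 154 cytosines) they lay at 26.0%, 19.7% and 22.4% in vector and 33.2%, 64.7% and 19.4% in SHMT2. Both genes had 2 SHMT2 libraries above and 1 below every vector library, so the groups overlapped. The difference was 17.9 points at Sash1 and 16.4 at Ptprm. Without replicate 2 it was 5.32 and 3.59. Shmt2 itself was unmethylated at its start, at 0.27% to 1.17% in all 6 libraries.

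Starts without overlap between groups were found in both directions. Of the 13467 starts, 577 (4.28%) were higher in every SHMT2 library than in every vector library and 639 (4.74%) lower. Without SHMT2 replicate 2 these shares were 8.59% and 9.08%. Exchanged labels alone fully separate 3 against 3 with a probability of 0.1 over both directions, and the first 2 shares together lay below it. Separation is easier with fewer libraries, so the higher shares without replicate 2 are not a stronger difference. Among such starts with at least 5 cytosines, the largest higher difference was at Rab10os, a non-coding transcript near Rab10. It lay at 5.12%, 4.86% and 12.2% in vector and 31.3%, 44.8% and 35.3% in SHMT2. Tead2 lay at 28.4%, 30.4% and 17.0% in vector and 51.4%, 69.1% and 37.6% in SHMT2. Apoe, which encodes the lipid carrier apolipoprotein E, lay at 34.9%, 15.3% and 17.8% in vector and 60.1%, 52.6% and 37.5% in SHMT2. At these 3 starts the difference without SHMT2 replicate 2 was 26.0, 19.3 and 26.1 points. They were chosen because every SHMT2 library lay above every vector library, so a difference had to remain. The other 7 largest higher starts were Cacna1e, Lipo3, Oxct2a, Tjp3, Zfp783, BC051537 and Hesx1, with differences of 18.3 to 24.2 points.

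Of the lower starts, D630041G03Rik lay at 21.0%, 24.8% and 26.7% in vector and 3.06%, 4.25% and 6.40% in SHMT2, over 6 cytosines. LOC115486434 lay at 21.1%, 19.18% and 24.8% in vector and 9.40%, 13.6% and 12.2% in SHMT2, over 66. Sgcd, which encodes delta-sarcoglycan of muscle, lay at 32.2%, 23.9% and 49.8% in vector and 13.1%, 18.9% and 17.0% in SHMT2. Without replicate 2 the differences at these 3 were -19.4, -10.9 and -20.3 points. At Gm14139 the difference of -21.2 became -7.66 without it. Sh3bgrl2 was high in 1 library, vector replicate 3, at 30.6%, against 1.30% to 5.00% in the other 5. The remaining 5, Gm5105, Gm36601, Gm30191, Cdhr5 and Gm39300, differed by -18.3 to -9.62 points.

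Neighbouring cytosines were then joined. Runs of at least 5 listed cytosines no more than 200 bp apart, each without overlap between groups, numbered 92 higher and 16 lower in SHMT2. Single cytosines without overlap were 3.17% higher and 2.46% lower. Without SHMT2 replicate 2 there were 201 runs higher and 104 lower, and single cytosines were 6.51% and 4.79%. Here too fewer libraries separate more easily, so these larger counts are not a stronger difference. The examples were chosen for length after their values were seen. The longest higher run, of 17 cytosines at Smpdl3a (chromosome 10), lay at 10.4%, 1.06% and 3.11% in vector and 49.1%, 18.97% and 15.9% in SHMT2. Next among the higher runs by length, after 1 at Hsbp1l1, was a run of 13 cytosines at Ltbp3 (chromosome 19), which encodes a binding protein of latent TGF-beta, at 61.8%, 60.4% and 42.8% in vector and 81.8%, 84.5% and 84.0% in SHMT2. The longest lower run, of 16 cytosines, lay at LOC115486434 and Kcns1.

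Of the 89375 tiles, 3.98% were higher without overlap and 4.97% lower. Of the 10 named tiles, 5 had larger differences than Rab10os, whose difference of 29.8 points was the largest of the named starts. At chr11:95830001-95831000, which holds Abi3 and Phospho1, 10 cytosines lay at 37.0%, 30.1% and 20.8% in vector and 70.5%, 76.3% and 70.7% in SHMT2. At chr5:74126001-74127000, outside any gene, 6 cytosines lay at 43.4%, 18.98% and 13.3% in vector and 71.95%, 82.4% and 65.2% in SHMT2. Among the lower tiles, 1 in Dlg5, a scaffold gene of cell polarity, lay at 49.6%, 62.1% and 54.0% in vector and 21.7%, 22.9% and 37.0% in SHMT2.

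**Figure D5:**
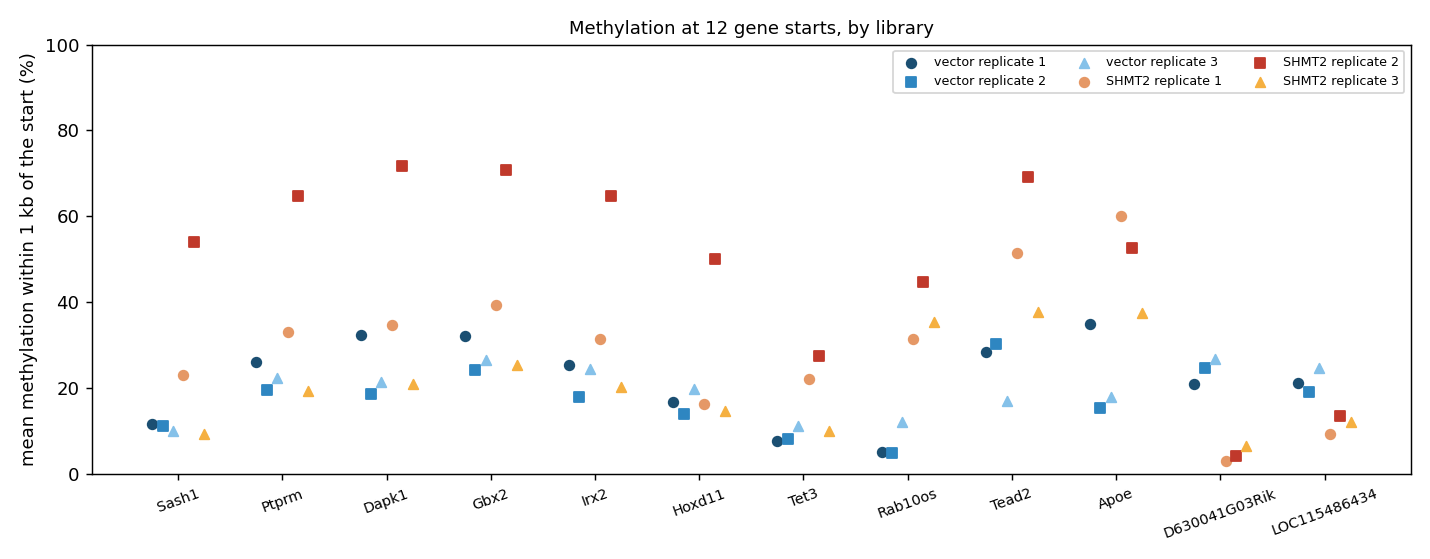
Mean methylation in percent within 1 kb of 12 gene starts. Each point is 1 library, vector in blue and SHMT2 in orange to red. From Sash1 to Hoxd11, SHMT2 replicate 2 lies far above the other 5 libraries. At Tet3 SHMT2 replicates 1 and 2 lie above the others, at Rab10os, Tead2 and Apoe all 3 SHMT2 libraries lie above the vector libraries, and at D630041G03Rik and LOC115486434 all 3 lie below.

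Gene starts of SHMT2 replicate 2 were described as a set. It lay at least 10 points above all of the other 5 libraries at 915 starts (6.79%) and at least 10 points below at 203 (1.51%). The other libraries had at most 58 above and 55 below. Just outside the limit lay 68 starts at 9 to under 10 points above, and just inside it 76 at 10 to under 11. The median level of the 915 starts was 16.8% over the other libraries and 44.6% in replicate 2, values that chose them. On measures that did not choose them, 73.0% of the 915 lay in neither H3K4 mark and 20.2% in H3K4me3, against 21.1% and 75.0% of all starts. Starts of a like level, the 1986 whose mean over the other libraries was 5 to 60% and where replicate 2 lay within 10 points of them, had 34.2% in neither mark and 53.1% in H3K4me3. The match in level is rough, as the median of these 1986 over the other libraries was 11.8%, against 16.8% for the 915. RNA was compared over starts with a TPM value, 672 of the 915, 9958 of all starts and 1371 of those of a like level. The median vector level of RNA of the 672 was 0.014 TPM, against 8.69 TPM over the 9958. At least 1 TPM was reached by 13.1% of the 672, against 69.6% of the 9958 and 33.8% of the 1371. Their start regions held a median of 18 CpGs, against 21 for all starts, 14 for those of a like level and 5 for the 203 low ones. The RNA-seq libraries are other samples, and in them vector replicates 2 and 3 held more erythroid and myeloid transcript (mean log2(TPM + 1) of the erythroid list 6.54 and 4.47, against 2.02 to 2.73). Of the 88 high starts at 1 TPM or more, 64 (72.7%) had lower RNA in SHMT2 than in the 3 vector libraries, against 48.1% of all 6930 starts at that level. Set against vector replicate 1 alone, 28 (31.8%) were lower, against 38.9% of all.

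The furthest of these starts were Lrig3, Adamts20, Adgra3 with its neighbour LOC115490186, and Sgsm1. Lrig3, a membrane regulator of growth factor receptors, lay at 17.8%, 16.4% and 14.5% in vector and 9.08%, 61.8% and 11.6% in SHMT2. Adamts20, a secreted metalloprotease of pigment cell development, lay at 27.4%, 18.6% and 23.4% in vector and 17.6%, 70.1% and 22.6% in SHMT2. At both, SHMT2 replicates 1 and 3 lay below the vector mean. Among the low starts, which have few CpGs, Gm14139 lay at 35.6% in replicate 2 and at 74.4% to 87.4% in the others. The other 4 named low starts were Gm33326, Gm36199, Gm34280 and Platr14.

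SHMT2 replicate 1 was often the next library. In the 3104 tiles (3.47%) where replicate 2 lay at least 10 points above the other 5, replicate 1 was second in 1476, vector replicate 1 in 887 and SHMT2 replicate 3 in 185. The mean over these tiles came to 25.4%, 20.2% and 22.2% in vector and 26.5%, 49.0% and 21.6% in SHMT2. In the 7983 tiles (8.93%) where replicate 2 lay at least 10 points below, it came to 74.9%, 77.7% and 74.7% in vector and 73.4%, 54.1% and 77.3% in SHMT2.

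Fixed gene lists placed these starts among gene groups. Developmental transcription factors, which direct the building of organs and are mostly silent in blood cells, had 50 of 75 members measured. Of them 41 were higher in SHMT2, with a median difference of 2.34 points, and 9 lower, against 7343 of 13467 higher and a median of 0.025 points over all starts. SHMT2 replicate 2 was the highest library in 37 of the 50 (74%), against 27.5% of all starts, and at least 10 points above the others in 12 (24%), against 6.79%. The 6.79% depends on level. That gap of 10 points was reached by 847 of the 2865 starts whose other libraries averaged 5 to 60%, a larger share than the 24% here. Of the 9085 starts under 5%, 49 reached it. Neither this list nor those below were matched in level to all starts, so a share above 6.79% is not read as particular to a list. Without SHMT2 replicate 2, 30 of 50 were higher, with a median of 0.33. Gbx2, a regulator of hindbrain and ear, lay at 32.2%, 24.3% and 26.5% in vector and 39.3%, 70.7% and 25.4% in SHMT2. Irx2, an Iroquois patterning factor, lay at 25.5%, 17.99% and 24.4% in vector and 31.5%, 64.8% and 20.2% in SHMT2. Sox2, a factor of stem cells and the nervous system, lay at 43.6% in replicate 2 and 13.4% to 17.8% elsewhere, and Foxd3, a neural crest factor, at 54.7% and 14.5% to 22.8%. Dlx1 and Dlx2 lay between 0.31% and 1.53% in all 6 libraries.

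Hox genes, which set position along the body axis, had 19 of 39 members measured. Of them 15 were higher in SHMT2 (median 3.20 points), against 7343 of 13467 starts. SHMT2 replicate 2 was highest in 16 (84.2%), against 27.5% of all starts. Without it 7 of 19 were higher (median -0.49). Hoxd11 lay at 16.8%, 13.9% and 19.7% in vector and 16.4%, 50.1% and 14.6% in SHMT2. Hoxd9 reached 34.3% in replicate 2, against 7.08% to 11.5%, and Hoxd1 44.9%, against 16.1% to 23.7%. Hoxa2 was highest in SHMT2 replicate 1, at 58.3%, against 23.5% to 32.5% in the other 5. Hoxa5 was methylated in every library, at 86.3% to 95.4%.

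Imprinted genes, expressed from the copy of 1 parent, had 32 of 50 members measured, of which 23 were higher in SHMT2 (median 1.56 points). Without SHMT2 replicate 2, 12 were higher (median -0.26). It was at least 10 points above the others at 10 (31.2%), against 6.79% of all starts and 847 of the 2865 starts at 5 to 60%. The last share is close to that of this list. Grb10, a growth-limiting adaptor, lay at 14.95%, 10.7% and 12.3% in vector and 12.9%, 43.0% and 10.7% in SHMT2. Zdbf2 lay at 43.4% in replicate 2, against 13.1% to 16.8%. Dlk1, a membrane protein of growth and fat cell development, lay at 37.7% in replicate 2. The start shared by Peg3 and Usp29 lay at 43.9% to 50.4% in 5 libraries and 70.5% in replicate 2. Other starts at imprinting control regions kept middling levels in all 6, at 38.1% to 46.7% for Plagl1 and 38.4% to 49.8% for Kcnq1ot1.

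Lymphoma tumour suppressors had 36 of 45 members measured, 20 higher and 16 lower, with a median difference of 0.024 points. They turned, without SHMT2 replicate 2, to 16 higher and 20 lower (median -0.022). The list holds Sash1 and Ptprm. SHMT2 replicate 2 was at least 10 points above the others at 6 (16.7%), namely Dapk1, Ephb1, Epha7, Id4, Sash1 and Ptprm. The share of all starts was 6.79%, which is not matched in level to this list. Dapk1, a kinase of cell death, lay at 32.3%, 18.7% and 21.3% in vector and 34.8%, 71.7% and 21.0% in SHMT2. Epha7, an ephrin receptor, lay at 7.58%, 7.11% and 8.29% in vector and 7.20%, 39.5% and 5.15% in SHMT2. Many others were unmethylated in every library: Cdkn2b, Trp53, Kmt2d, Crebbp, Tnfaip3 and Prdm1 did not exceed 1.33% in any.

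Enzymes of the methylation machinery had 21 of 28 members measured, 13 higher and 8 lower (median 0.041 points), or 12 and 9 without SHMT2 replicate 2 (median 0.033). Tet3, which oxidises 5-methylcytosine, lay at 7.64%, 8.12% and 11.1% in vector and 22.1%, 27.5% and 10.0% in SHMT2. Tet1 did not overlap between groups, at 2.46% to 3.21% in vector and 3.82% to 7.97% in SHMT2. Dnmt1, Dnmt3a, Dnmt3b and Uhrf1 lay under 0.5%. Serine and 1-carbon metabolism had 30 of 42 members measured, 19 higher and 11 lower (median 0.087), or 18 and 12 without replicate 2 (median 0.060). Gnmt, which consumes S-adenosylmethionine, lay at 71.7%, 55.4% and 78.8% in vector and 81.5%, 85.9% and 78.5% in SHMT2. Germline genes, many of which somatic cells keep methylated, had 30 of 48 members measured, 12 higher and 18 lower (median -0.38). Without replicate 2 the direction turned, with 16 higher and 14 lower (median 0.62). Their median level was 88.7% to 91.6% in all 6 libraries. Dazl did not overlap between groups, at 40.9% to 45.3% in vector and 46.5% to 69.3% in SHMT2.

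Lists of blood and stromal cell types had few starts with data. Mature B cell identity had 9 of 34 measured, 2 higher and 7 lower (median -0.044 points), and germinal centre B cells 12 of 20, 6 higher and 6 lower. T cells had 5 of 24 measured (4 higher), myeloid cells 3 of 28 (3 higher), erythroid cells 8 of 28 (5 higher), natural killer cells 2 of 14 (1 higher), and stroma and endothelium 6 of 18 (2 higher). The numbers higher without SHMT2 replicate 2 were 2 for mature B cells, 8 for germinal centre B cells, 3 for T cells, 3 for myeloid cells, 3 for erythroid cells, 1 for natural killer cells and 1 for stroma and endothelium. Bcl11b, a T cell factor, lay at 33.6% in SHMT2 replicate 2, against 7.64% to 16.3%. Cebpa, a myeloid factor, lay at 11.9%, against 2.18% to 3.85%. Pax5, a factor of B cell identity, had 0 methylated calls of 150 to 215 in each SHMT2 library, which allows a level of up to 1.4% to 2%, and 0.78% to 3.81% in vector, over 5 cytosines.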

How the data were processed

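Per the submitters' processing notes the reads were handled with Bismark and Bowtie2 on mm10, versions and settings being not given in the sources used here, and 200 ng of DNA was bisulfite-treated per the labels' protocols. The deposited tables list, per cytosine and strand, a whole-number count of calls (coverage, at least 10) and the percent of C and T among them, as the authors made them. Methylated counts were recovered as percent times coverage, and all 193825 listed cytosines inside RefSeq start regions sat on a CpG. The deposited RNA-seq values were TPM by the authors, and their peak lists, with a fold ratio per peak, only marked H3K4me3 (5 libraries) and H3K4me1 (4 libraries) regions.

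Library means were compared by two-sided exact permutation tests, with Benjamini-Hochberg adjustment over strata of a kind. Features were tested with a quasi-binomial model whose spread was moderated as in limma (Python 3.11.15, numpy 2.4.6, scipy 1.17.1, pandas 2.3.3, R 4.3.3, limma 3.58.1), tested on simulated data. Tiles and starts needed at least 3 cytosines. The simulated 25-point changes were set in 200 of 13467 gene starts. The deposited calls carry no molecular identifiers, so calls are not independent molecules. Named starts were the 10 largest without overlap each way with at least 5 cytosines, tiles likewise with 5, the 5 furthest of SHMT2 replicate 2 each way, Sash1, Ptprm and Shmt2, and 2 per list. Further list members were named after their values were seen. The comparisons and the 14 lists were chosen with earlier results of these data known. Alternatives covered coverage limits, strands, weighting, windows, bins, other tests and each library left out. ChIP input libraries were not used here.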

Additional observations from a re-analysis of the deposited data

How the results depend on the processing

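Leaving out SHMT2 replicate 2 reversed the differences, in points, at starting levels of 0 to 5% (-0.029), 60 to 80% (0.33) and 80 to 95% (0.68), at 1 to 3 CpGs (0.52), within 10 kb of genes (0.52) and further away (0.18). With each library left out in turn, the lowest and highest differences were -0.029 and 0.14 at 0 to 5%, 0.51 and 6.06 at 5 to 20%, 1.89 and 11.04 at 20 to 40%, -0.23 and 1.30 at 40 to 60%, -6.35 and 0.33 at 60 to 80%, and -1.99 and 0.68 at 80 to 95%. They were -3.03 and 0.52 at 1 to 3 CpGs, -0.33 and 0.58 at 4 to 7, -0.022 and 0.55 in gene bodies, -0.81 and 0.52 within 10 kb, -3.41 and 0.18 further away, and -0.017 and 0.72 in neither mark. SHMT2 was then higher on 18 to 19 chromosomes. Differences that were small as first reported also changed sign in some settings. At 40 to 60% the 0.36 points became -0.098 with strands summed, and within 10 kb the -0.29 became 1.76 with levels weighted by calls. At 95 to 100% the 0.37 became -1.42 with bins on the vector mean. At 4 to 7 CpGs the 0.068 became -0.90 with density over 500 bp. Bins on the vector mean are chosen from the vector group alone, whereas bins on all 6 libraries treat both groups alike. The causes were not tested. Alternatives chosen after seeing the data were bins on the other 5 libraries (95 to 100%, -0.18) and the 4 libraries with many chromosome Y cytosines, which gave -0.0075 at 0 to 5%, 0.53 at 60 to 80%, 0.97 at 80 to 95%, 0.75 at 1 to 3 CpGs, 0.76 within 10 kb and 0.46 further away.

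The model called 0 cytosines, tiles and starts under each alternative run except with no level limit. That run called 6 cytosines, all with a mean level inside the limit and not called with it. The chromosome Y class as a block was also an alternative chosen after seeing the data. Fisher's exact test, run on group sums and so blind to the spread between libraries, called 6333 of 485319 cytosines, 5552 of 89375 tiles and 595 of 13467 starts. In the model without SHMT2 replicate 3, 63779, 10056 and 1128 of these same features had an unadjusted p under 0.05. With all 6 libraries the counts were 24139, 3290 and 463, or 4.97%, 3.68% and 3.44%. That setting leaves replicates 1 and 2 as the SHMT2 group. Replicate numbers did not pair the libraries (correlations of deviations -0.064, -0.29 and -0.056). With a replicate block the differences were the same (0.42 over all cytosines) and the model called 0 of each kind. Of the 485319 cytosines, 89375 tiles and 13467 starts, 22243, 2758 and 396 then had an unadjusted p under 0.05. Of 59 named starts, 9 changed sign without SHMT2 replicate 2. In simulated starts with the depths of these libraries, 92.0% of 25-point changes were recovered with a small spread between libraries and 0% with a large one. Neither spread was fitted to these libraries.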
